A study of Mus musculus with 2 samples.

Results

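The BCL2 family was followed in tumors of RM-1 cells through 10 of its genes, chosen by name from the 32285 genes in the files: the anti-apoptotic members Bcl2, Bcl2l1, Mcl1 and Bcl2a1b, the effectors Bax and Bak1, and the BH3-only members Bcl2l11, Bbc3, Pmaip1 and Bid. Each was counted in cancer cells, T cells, NK cells, macrophages, monocytes, neutrophils and dendritic cells (DC). RM-1 is a mouse prostate cancer line that is resistant to enzalutamide (ENZ), an antagonist of the androgen receptor, from the outset. Droplet-based scRNA-seq was run on an orthotopic RM-1 tumor of a vehicle-treated mouse (the control library) and on that of a mouse given ENZ (the ENZ library), 1 library each, with a wild-type genotype in the labels. The study's methods place these tumors in C57BL/6 mice and describe an enrichment of immune cells at sorting, so the mix of cells is that of the sort and not of the tumor. The comparison asks how cells of such a tumor differ when the mouse receives ENZ. With 1 library per condition, the effect of ENZ and the difference between these mice and preparations cannot be told apart, no test was possible, and every interval below is a 95% interval for counting error only.

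Proteins of the BCL2 family decide whether the outer membrane of the mitochondrion is breached. Bax and Bak1 open pores in it, which releases cytochrome c and starts the caspases. Bcl2, Bcl-xL (from Bcl2l1), Mcl1 and A1 (from Bcl2a1b and its copies) bind and restrain them, and the BH3-only proteins, which answer to stress, growth factor withdrawal or p53, bind the restraining members or trigger Bax and Bak1 directly. Blood cells are known to lean on different restraining members: Bcl2 in naive lymphocytes, Mcl1 in neutrophils and in many other cells, and A1 in activated and myeloid cells.

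The control library held 170830346 UMIs and the ENZ library 162030149 UMIs, a UMI being 1 counted RNA molecule. Among barcodes with at least 1000 UMIs and at most 20% mitochondrial UMIs, the marker gates held 2443 control and 2972 ENZ cancer cells, 447 control and 669 ENZ T cells, 446 control and 220 ENZ NK cells, 1034 control and 592 ENZ macrophages, 734 control and 978 ENZ monocytes, 1221 control and 459 ENZ neutrophils and 431 control and 198 ENZ dendritic cells. The median depth was 23110 control and 23922.5 ENZ UMIs in cancer cells and 1972 control and 2065 ENZ UMIs in neutrophils, the deepest and the shallowest class, with the other classes between. Levels are UMIs of the gene as CPM of all UMIs summed over the cells of a class. The gated cancer cells had Krt8 at 481 and 543 CPM (control first), with 7 of the 12 listed epithelial markers below 10 CPM in each, and Ptprc at 0 as the gate required. Fibroblast markers summed to 477 CPM in control and 484 CPM in ENZ cells (2 and 2 of 6 at 10 CPM or more, Col3a1 the most abundant) in these cells, and Krt18 stood at 389.7 and 385 CPM. The immune classes carried their own markers, with Cd3e at 243 and 258 CPM in T cells, Ncr1 at 149 and 94.0 CPM in NK cells, C1qa at 2174 and 1796 CPM in macrophages, Ly6c2 at 675 and 615 CPM in monocytes and Flt3 at 97.7 and 164 CPM in dendritic cells, control first. Another 5295 control and 4027 ENZ barcodes within the limits fell in no gate, and 10 barcode sequences were shared by gated cells of both libraries.

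The family divided the classes in a way that was similar in both libraries. NK cells led for Bcl2 and neutrophils for Bcl2l1, Mcl1 and Bcl2l11, while dendritic cells led for Bcl2a1b and Pmaip1. Cancer cells had the lowest level of Bcl2l1, Mcl1, Bcl2a1b, Bcl2l11, Pmaip1 and Bid and stood near the top for Bax and Bak1. The leading class was the same in both libraries for every member except Bax and Bak1. Of the leads named here, that for Bcl2l11 moved to another class in the control under 1 of 9 processing alternatives. Levels are compared between classes and libraries and not between genes, because UMIs from 3' ends are not scaled to length and genes differ in how well they are captured.

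**Figure D1:**
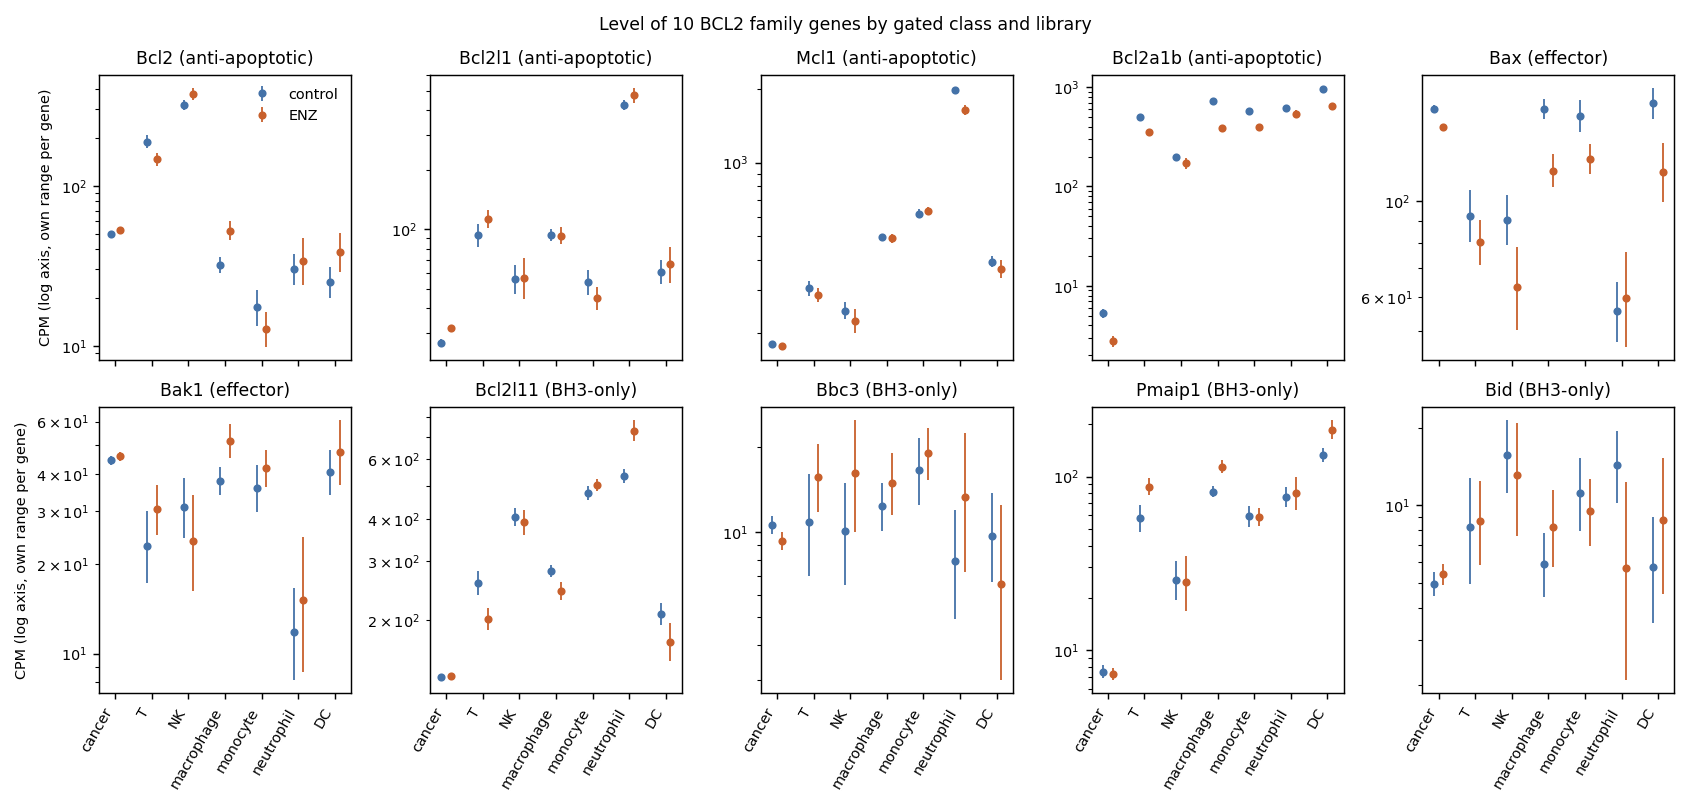
Level of each of the 10 members in 7 gated classes, as CPM on a log axis with its own range for each gene. Points are single libraries, control in blue and ENZ in orange, and bars are exact Poisson 95% intervals. NK cells stand highest for Bcl2 (321 and 376 CPM) and neutrophils for Mcl1 (1974 and 1648 CPM).

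In the ratio of ENZ over control CPM, few members differed by 1.5 fold. A gene was called past the fold when its CPM differed by at least 1.5 times with at least 20 UMIs over both libraries, a minimum that all 10 members met in all 7 classes. In cancer cells 1 of the 10 members was past it (Bcl2a1b, lower in the ENZ library), against 10.5% of 17604 genes. That level was far below free RNA, the RNA released from other cells that barcodes with at most 100 UMIs hold, and with free RNA subtracted it was 0 in both libraries and the count was 0, so that the call cannot be read as one of cancer cells. In T cells 1 was (Pmaip1, higher), against 21.1% of 10886 genes, and in NK cells 1 was (Bbc3, higher), against 20.5% of 9349 genes. In macrophages 2 were (Bcl2 higher and Bcl2a1b lower), against 24.4% of 12616 genes, and in monocytes 0 were, against 21.9% of 10960 genes. In neutrophils 2 were (Bbc3 higher and Bid lower), against 24.6% of 8666 genes, and in dendritic cells 2 were (Bcl2 and Bid, higher), against 26.5% of 9994 genes. The share of members past the fold was thus at or below that of all genes in each class. Over the UMI limits, gates, scalings and the subtraction of free RNA, the calls of Bcl2a1b in macrophages and of Bid in neutrophils stayed past the fold, whereas each other call in T cells, NK cells, macrophages, neutrophils and dendritic cells fell short under at least 1 of them. The Bid level of ENZ neutrophils rested on 6 UMIs and was below that of free RNA.

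The median log2 ratio of the members was -0.01, beside 0.01 over all genes in cancer cells. It was -0.004, beside 0.08 over all genes in T cells, -0.10, beside 0.08 over all genes in NK cells and 0.13, beside 0.15 over all genes in macrophages. In monocytes it was -0.13, beside 0.09 over all genes, in neutrophils 0.13, beside -0.01 over all genes and in dendritic cells 0.01, beside 0.10 over all genes. The median of all genes was above 0.1 in macrophages and dendritic cells, so that the lower Bcl2a1b and Bax there lay further below the typical gene than below 0. In cancer cells, where counts were largest, the 9 members other than Bcl2a1b had ratios between 0.879 and 1.19.

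**Figure D2:**
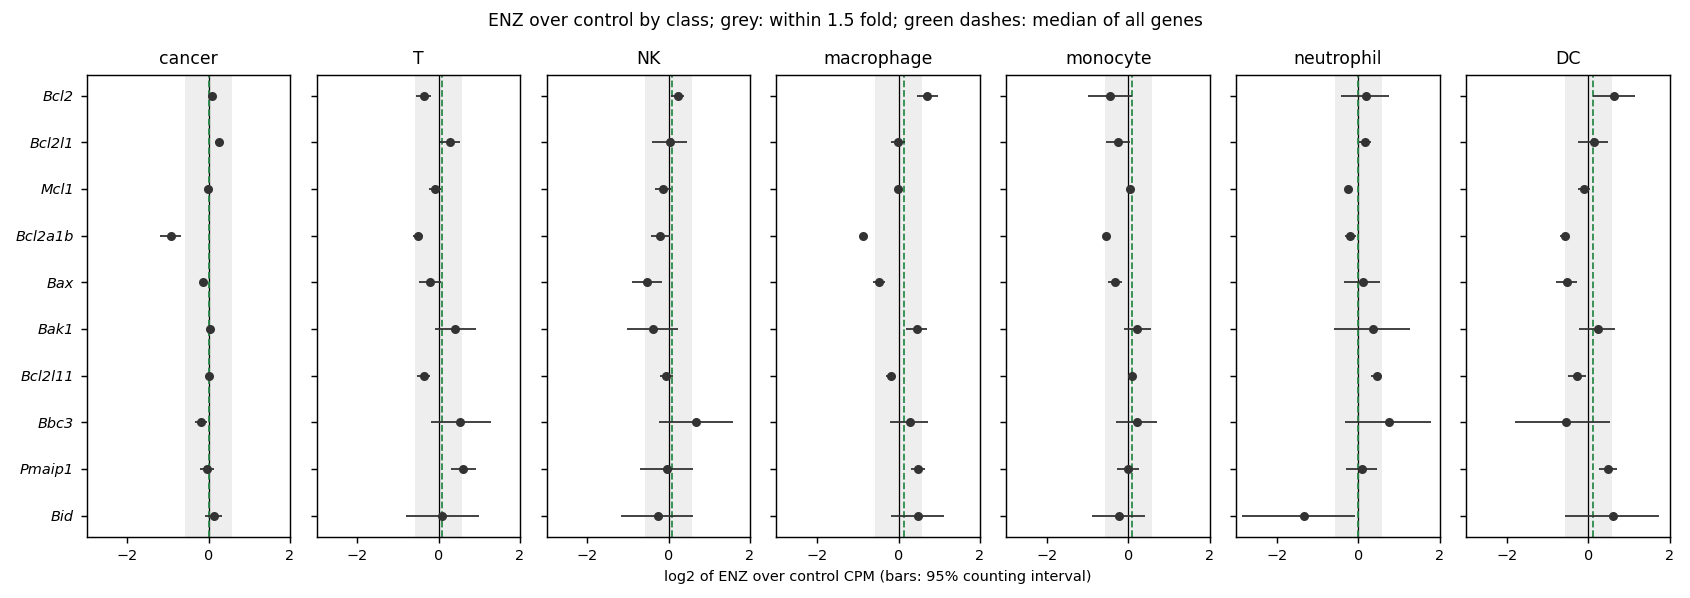
Log2 ratio of ENZ over control CPM for the 10 members in each class, with exact conditional binomial 95% intervals; the grey band marks less than 1.5 fold and the green dashes the median of all genes in the class. Bcl2a1b lies left of 0 in the 6 immune classes, its point for cancer cells rests on a level far below free RNA, and most other points lie in the band.

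Bcl2, the founding restraining member (ENSMUSG00000057329, chr1:106538178-106714274 on the minus strand of GRCm38), was highest in NK cells and next highest in T cells as a whole. NK cells had 321 CPM (control) and 376 CPM (ENZ), and T cells had 189 CPM (control) and 146 CPM (ENZ). Cancer cells followed with 49.8 and 52.9 CPM, control first as in all pairs below. Monocytes had the lowest level, 17.4 and 12.8 CPM, so that NK cells stood at 18.5 times the monocyte level in the control, against 29.4 times in the other library. Macrophages (32.1 and 52.4 CPM), neutrophils (30.1 and 34.1 CPM) and dendritic cells (24.9 and 38.8 CPM) lay between, and the intervals of neighbours among these overlapped, as did those of cancer cells and macrophages in the ENZ library. Free RNA held Bcl2 at 39.7 CPM (control) and 43.0 CPM (ENZ), so that every myeloid level except that of ENZ macrophages was below that of free RNA. After each cell was thinned to 1000 UMIs, a Bcl2 UMI was found in 28.5% (24.3 to 32.9) of control cells and 30.0% (24.0 to 36.5) of ENZ cells among NK cells (unthinned 60.8% and 62.7%) and in 1.91% (1.05 to 3.18) of control cells and 0.920% (0.422 to 1.74) of ENZ cells among monocytes (unthinned 5.59% and 5.73%), which were of similar depth.

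Between the libraries, Bcl2 differed in opposite directions in T cells and macrophages. The ratio of ENZ over control was 1.63 (1.36 to 1.96) in macrophages, past 1.5 fold (short of it with median-of-ratios scaling, at 1.48), and 0.774 (0.679 to 0.882) in T cells, short of it. Dendritic cells gave 1.56 (1.08 to 2.23), which was 1.39 without barcodes above the 99th percentile of UMIs, and cancer cells gave 1.06 (1.02 to 1.11). NK cells gave 1.17 (1.04 to 1.31), monocytes 0.734 (0.506 to 1.07) and neutrophils 1.13 (0.744 to 1.69). By UMI tertile, from low to high, the NK ratio was 0.796, 1.34 and 1.38, so that it lay below 1 in the shallowest cells. In T cells, NK markers summed to 327 CPM in control and 232 CPM in ENZ cells, with Gzma the most abundant. Their part in the T cell ratio was not tested. The macrophage ratio was 1.91 (1.45 to 2.52) among macrophages with a UMI of Mmp12, a macrophage elastase, and 1.47 (1.15 to 1.87) among those without. The dendritic ratio rested on 82 control and 53 ENZ UMIs, and split by depth into tertiles it came out at 0.322 in the dendritic cells with the fewest UMIs (10 against 2 UMIs of Bcl2), against 2.53 and 1.37 in the middle and upper tertile.

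Within T cells the Bcl2 level differed between subsets. CD8 T cells (a UMI of Cd8a or Cd8b1, none of Cd4 or Foxp3) had 174 CPM (control) and 182 CPM (ENZ), CD4 T cells without Foxp3 had 44.0 and 82.5 CPM and T cells with a UMI of Foxp3, the factor that marks regulatory T cells, had 4.40 and 28.8 CPM. The ratio of ENZ over control was 1.05 (0.809 to 1.37) in CD8 T cells and 1.87 (1.12 to 3.32) in CD4 T cells without Foxp3, neither of them in the direction of T cells as a whole. In Foxp3 T cells it was 6.54 (0.983 to 278), from 1 UMI in the control. Both levels of Foxp3 T cells were below free RNA, and the control level of CD4 T cells without Foxp3 was near it. The subsets held 89 control and 152 ENZ cells for CD8, 59 control and 178 ENZ cells for CD4 without Foxp3 and 38 control and 84 ENZ cells for Foxp3, and the remaining 261 control and 255 ENZ T cells showed no UMI of these genes or a mix of them. These remaining T cells, looked at after the values of the subsets had been seen, had Bcl2 at 286 and 223 CPM, a ratio of 0.779 (0.657 to 0.922), above CD8 T cells and in the direction of T cells as a whole.

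Bcl2l1, whose main product is Bcl-xL (ENSMUSG00000007659, chr2:152780668-152831728 on the minus strand), stood apart in neutrophils, with 425 CPM (control) and 475 CPM (ENZ). That was 4.54 times the next class, macrophages, in the control, while T cells came next in the ENZ library. T cells had 93.1 and 113 CPM, macrophages 93.6 and 92.9 CPM and dendritic cells 61.0 and 66.6 CPM. NK cells (56.0 and 57.0 CPM) and monocytes (54.0 and 44.9 CPM) overlapped in their intervals, and cancer cells were lowest with 26.7 and 31.8 CPM. The ENZ library was higher in cancer cells at a ratio of 1.19 (1.12 to 1.27), in T cells at 1.21 (1.03 to 1.44) and in neutrophils at 1.12 (1.005 to 1.24), all short of 1.5 fold. In the other classes the interval of the ratio held 1, from 0.832 (0.681 to 1.02) in monocytes to 1.09 (0.842 to 1.40) in dendritic cells. Within T cells, Foxp3 T cells gave 1.80 (1.10 to 3.07), past 1.5 fold, from 21 control and 75 ENZ UMIs. The interval held 1 in CD8 T cells at 1.14 (0.736 to 1.78) and in CD4 T cells without Foxp3 at 1.06 (0.782 to 1.47). It also held 1 in the remaining T cells (0.753 to 1.33). The T cell ratio was 0.986, 1.03 and 1.39 in the low, middle and high UMI tertile. Its interval held 1 in the low and middle tertile. Free RNA held 37.3 CPM (control) and 40.0 CPM (ENZ), above the level of cancer cells.

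Mcl1, a short-lived restraining member (ENSMUSG00000038612, chr3:95658788-95663176 on the plus strand), was at 1974 CPM (control) and 1648 CPM (ENZ) in neutrophils, 3.20 and 2.60 times the level of monocytes (617 and 633 CPM). Macrophages had 497 and 489 CPM, dendritic cells 394 and 367 CPM and T cells 306 and 288 CPM. NK cells had 247 and 225 CPM and cancer cells 182 and 179 CPM. No neighbouring classes overlapped in their intervals in either library, and the order of the 7 classes was the same in both. Mcl1 differed little between the libraries. The ratio was 0.835 (0.790 to 0.881) in neutrophils, where the ENZ level was lower, and in the other 6 classes its interval held 1, from 0.909 (0.788 to 1.05) in NK cells to 1.03 (0.971 to 1.09) in monocytes. After thinning to 1000 UMIs, 83.6% (81.4 to 85.7) of control cells and 75.6% (71.4 to 79.5) of ENZ cells had an Mcl1 UMI among neutrophils (unthinned 95.5% and 90.8%). Free RNA held 294 CPM (control) and 288 CPM (ENZ), above the levels of NK cells and cancer cells.

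Bcl2a1b encodes A1, a restraining member that is switched on in activated and inflammatory cells. The mouse genome carries near-identical copies of it, and 3 of them held nearly all UMIs here: Bcl2a1b (ENSMUSG00000089929, chr9:89199209-89207827 on the plus strand), Bcl2a1a (chr9:88956900-88962419 on the plus strand) and Bcl2a1d (chr9:88723285-88731914 on the minus strand), all in GRCm38. The transcript of Bcl2a1b was identical to that of Bcl2a1a over 97.9% of aligned positions and to that of Bcl2a1d over 93.9%. Of the 211 stretches of 90 bases in the last 300 bases of the Bcl2a1b transcript, 106 also occur in Bcl2a1d and 1 in Bcl2a1a, so that reads could be split between copies and the level of each copy is uncertain, while their sum is less so. The copies share their upstream sequence as well, which is printed here because the 3 genes were lower together in the ENZ library. The stretches of 93 bases come from RefSeq promoters of GRCm38.p6, at chr9:89199065-89199157 and chr9:88956756-88956848 on the plus strand and chr9:88731922-88732014 on the minus strand, read 5′ to 3′ along the gene. Capitals mark GAGGAAGT, letters that the myeloid factor PU.1 is known to bind.
Bcl2a1b: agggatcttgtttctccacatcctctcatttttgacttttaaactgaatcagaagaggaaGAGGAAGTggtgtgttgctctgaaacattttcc
Bcl2a1a: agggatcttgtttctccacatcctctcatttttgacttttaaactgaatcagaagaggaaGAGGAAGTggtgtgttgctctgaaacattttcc
Bcl2a1d: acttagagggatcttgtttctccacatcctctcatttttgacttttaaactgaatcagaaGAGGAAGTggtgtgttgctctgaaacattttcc
The stretches of Bcl2a1b and Bcl2a1a were identical, and that of Bcl2a1d matched Bcl2a1b at 87 of 99 aligned positions. The other positions were gaps and not mismatches. Bcl2a1d lacks a few bases just before GAGGAAGT, so its stretch, cut at the same distance from these letters, starts further upstream. On either strand, GAGGAAGT was found in 3.20% of 32851 RefSeq promoters of 300 bases and, of the 9 members with a promoter in that table, in Bcl2a1b and Bak1. The full cAMP response element TGACGTCA was in no promoter of these 9 members and in 1.79% of all, and its first 5 letters, TGACG, were in those of Bcl2, Mcl1, Bcl2a1b and Bbc3 and in 20.8% of all. These are matches of letters, not measured binding.

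Bcl2a1b was highest in dendritic cells, with 956 CPM (control) and 641 CPM (ENZ). In the control, macrophages followed at 717 CPM, then neutrophils (618) and monocytes (574), whose intervals overlapped. In the ENZ library, macrophages stood at 392 CPM, below neutrophils (539) and level with monocytes (393). T cells had 499 and 350.2 CPM and NK cells 196 and 170.4 CPM, the control value of NK cells being below that of free RNA. Cancer cells had 5.28 and 2.76 CPM, far below the 209 CPM (control) and 93.5 CPM (ENZ) of free RNA, so that no expression by cancer cells can be read from it.

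The level of Bcl2a1b was lower in the ENZ library in all 6 immune classes. The ratio of ENZ over control was 0.547 (0.518 to 0.577) in macrophages, past 1.5 fold. It was 0.670 (0.621 to 0.722) in dendritic cells, 0.685 (0.643 to 0.730) in monocytes and 0.702 (0.647 to 0.762) in T cells, all short of the fold but past it with median-of-ratios scaling, at 0.623, 0.644 and 0.663. Neutrophils gave 0.872 (0.792 to 0.960) and NK cells gave 0.870 (0.738 to 1.02), whose interval held 1. By UMI tertile, from low to high, the ratio was 0.574, 0.538 and 0.563 in macrophages, but 0.840, 0.622 and 1.12 in neutrophils and 1.08, 0.736 and 0.890 in NK cells, so that in the last pair of classes 1 tertile each lay above 1. With all copies of Bcl2a1 summed, the ratio in the immune classes ran from 0.507 in macrophages to 0.839 in neutrophils, and each of the 6 intervals was below 1. Bcl2a1a was also lower in T cells, at 34.2 and 5.80 CPM, a ratio of 0.169 (0.0982 to 0.280) from 79 control and 20 ENZ UMIs, but these levels were below free RNA, which held 60.6 CPM (control) and 22.1 CPM (ENZ) of this copy. Bcl2a1d gave 0.436 (0.401 to 0.474) in macrophages.

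Within the subclasses of dendritic cells, macrophages and T cells the ratio was below 1 as well. Among dendritic cells, mature DC (Ccr7, Fscn1) had 1758 CPM (control) and 1110.1 CPM (ENZ), a ratio of 0.631 (0.563 to 0.708). Type 1 conventional DC (cDC1, with Xcr1 and Clec9a) gave 655 and 383 CPM, a ratio of 0.585 (0.503 to 0.677), and cDC2 gave 962 and 549.8 CPM, a ratio of 0.571 (0.493 to 0.660). Mature DC, the subclass with the most Bcl2a1b, made up 102 of 431 control and 71 of 198 ENZ dendritic cells. The ratio was 0.531 (0.487 to 0.579) in macrophages with Mmp12 and 0.594 (0.552 to 0.639) in those without. Among T cells it was 0.572 (0.491 to 0.667) in CD4 T cells without Foxp3, 0.634 (0.489 to 0.823) in Foxp3 T cells and 0.833 (0.687 to 1.01) in CD8 T cells, where it held 1. After thinning to 1000 UMIs, a Bcl2a1b UMI was found in 42.0% (38.9 to 45.0) of control cells and 27.7% (24.1 to 31.5) of ENZ cells among macrophages (unthinned 81.2% and 71.6%), against 0.655% (0.375 to 1.06) of control cells and 0.269% (0.116 to 0.530) of ENZ cells among cancer cells.

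Other values differed between the same libraries. In T cells, macrophage markers summed to 315 CPM in control and 108 CPM in ENZ cells (6 and 5 of 8 at 10 CPM or more, C1qb the most abundant). In dendritic cells, neutrophil markers summed to 382 CPM in control and 55.6 CPM in ENZ cells (7 and 2 of 8 at 10 CPM or more, S100a9 the most abundant), and macrophage markers summed to 562 CPM in control and 234 CPM in ENZ cells (8 and 5 of 8 at 10 CPM or more, C1qb and Mrc1 the most abundant). In macrophages, neutrophil markers summed to 888 CPM in control and 515 CPM in ENZ cells (8 and 6 of 8 at 10 CPM or more, S100a9 and Mmp9 the most abundant), while in monocytes they summed to 276 CPM in control and 550.2 CPM in ENZ cells (5 and 5 of 8 at 10 CPM or more, S100a8 the most abundant), the opposite direction. Monocyte markers in macrophages summed to 1335 CPM in control and 2049 CPM in ENZ cells (8 and 8 of 8 at 10 CPM or more, Plac8 and F13a1 the most abundant), which stands beside the macrophage ratios of Bcl2, Bcl2a1b and Pmaip1 alike. The share of free RNA, estimated from the keratins Krt8, Krt18 and Krt19 in the immune classes, lay between 3.32% and 9.07% in the control and between 4.81% and 7.06% in the ENZ library. With that profile subtracted, Bcl2a1b stood at 512 and 367 CPM in T cells and at 737 and 410.4 CPM in macrophages, and in cancer cells, where neutrophil and macrophage markers gave the estimate, at 0 in both. Genes that collect rRNA-like reads (Gm42418, AY036118, Lars2 and Cmss1) together held 36321 CPM in control and 93915 CPM in ENZ macrophages, and their sum was higher in the ENZ library in every class. Of 10 genes known to respond to tissue dissociation, such as Fos and Hspa1a, 10 were lower in the ENZ library in cancer cells and 8 in monocytes. In T cells, NK cells and neutrophils 7 were lower, in dendritic cells 6 and in macrophages 5. Their sum was lower in the ENZ library in every class, with 11612 and 7513 CPM in macrophages. Fos itself was higher in ENZ macrophages, at 323 and 438 CPM. With mitochondrial, ribosomal protein and rRNA-like genes left out of the total, the log2 ratio of Bcl2a1b in macrophages was -0.85. The part of the other marker lists and of the dissociation genes in the result was not tested.

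**Figure D3:**
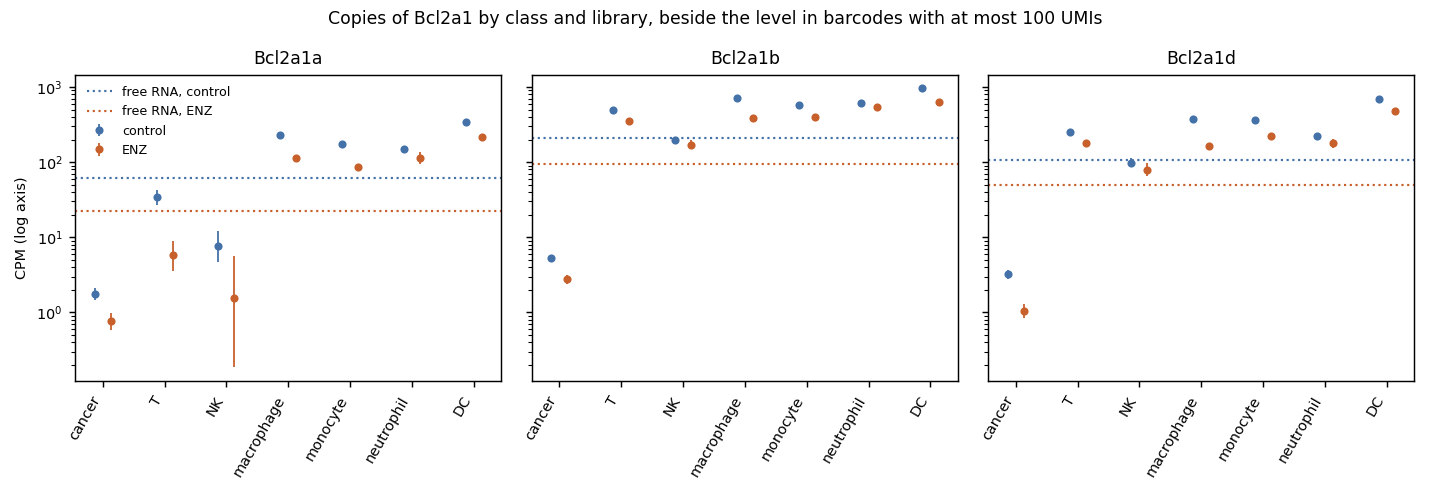
Level of 3 copies of Bcl2a1 in 7 gated classes, as CPM on a log axis, control in blue and ENZ in orange, with exact Poisson 95% intervals; dotted lines are the level in barcodes with at most 100 UMIs. For Bcl2a1b every ENZ point lies below its control point, and cancer cells lie below the dotted lines.

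The effectors had a different distribution. Bax (ENSMUSG00000003873, chr7:45461697-45466898 on the minus strand), which moves from the cytosol to mitochondria to form pores, was at similar levels in cancer cells (164 and 149 CPM), macrophages (164 and 118 CPM), monocytes (158 and 126 CPM) and dendritic cells (169 and 117 CPM). T cells had 92.7 and 80.3 CPM, NK cells 90.7 and 63.2 CPM and neutrophils, the lowest class, 55.6 and 59.7 CPM. The top of the order was not resolved in the control, where dendritic cells, macrophages, cancer cells and monocytes overlapped as neighbours, whereas cancer cells led alone in the ENZ library. The Bax level was lower in the ENZ library at a ratio of 0.692 (0.577 to 0.827) in dendritic cells, 0.697 (0.534 to 0.901) in NK cells, 0.718 (0.647 to 0.796) in macrophages, 0.797 (0.708 to 0.897) in monocytes and 0.907 (0.884 to 0.931) in cancer cells, none past 1.5 fold. With median-of-ratios scaling it was past the fold in macrophages at 0.649, in dendritic cells at 0.644 and in NK cells at 0.661. Within dendritic cells it was 0.668 (0.503 to 0.877) in cDC1 and 0.679 (0.493 to 0.921) in cDC2 but 0.980 (0.642 to 1.48) in mature DC. It was 0.635 (0.528 to 0.759) in macrophages with Mmp12 and 0.743 (0.652 to 0.846) in those without. In Foxp3 T cells the ratio was 0.516 (0.324 to 0.824) from 39 control and 40 ENZ UMIs, past 1.5 fold, but the macrophage gene C1qa was also lower there, at 96.7 and 15.5 CPM, while Mmp12 was at 4.40 and 19.9 CPM, and their part was not tested. The Bax levels of these cells were 172 and 88.5 CPM, the ENZ one below free RNA. In NK cells, macrophage markers summed to 129 CPM in control and 54.0 CPM in ENZ cells (4 and 3 of 8 at 10 CPM or more, C1qb and C1qa the most abundant), neutrophil markers summed to 255 CPM in control and 73.2 CPM in ENZ cells (5 and 3 of 8 at 10 CPM or more, S100a9 the most abundant) and T cell markers summed to 289 CPM in control and 171 CPM in ENZ cells (4 and 4 of 8 at 10 CPM or more, Trbc2 the most abundant, with Cd6 at 0 in control cells), and their part in the NK ratios was not tested. Free RNA differed the same way, with 149 CPM (control) and 107 CPM (ENZ), above T cells, NK cells and neutrophils in both libraries. With that profile subtracted, Bax stood at 165 and 119 CPM in macrophages and at 169.8 and 118 CPM in dendritic cells. The Bax ratio was alike in the low, middle and high UMI tertile of macrophages, at 0.726, 0.745 and 0.719. In NK cells it was 0.858, 0.404 and 0.782, and the interval held 1 in the low and high tertile.

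Bak1 (ENSMUSG00000057789, chr17:27019810-27029009 on the minus strand), the pore former that sits in the mitochondrial membrane, had 44.5 and 45.8 CPM in cancer cells, 40.7 and 47.5 CPM in dendritic cells, 38.0 and 51.7 CPM in macrophages and 36.0 and 41.8 CPM in monocytes, which overlapped as neighbours. NK cells had 31.0 and 23.9 CPM, T cells 23.0 and 30.4 CPM and neutrophils 11.8 and 15.2 CPM. Macrophages were higher in the ENZ library at a ratio of 1.36 (1.14 to 1.62), the one class whose interval did not hold 1. Bax and Bak1 thus differed in opposite directions in macrophages, and UMIs of Bax per 100 UMIs of Bak1 there were 431 (382 to 488) for control and 228 (194 to 268) for ENZ cells. ENZ cells gave the lower number in all 7 classes, among them monocytes with 439 (359.6 to 538) for control and 300.5 (256 to 354) for ENZ cells and cancer cells with 369 (354 to 384) for control and 325 (313 to 337) for ENZ cells. Free RNA held Bak1 at 36.0 CPM (control) and 50.7 CPM (ENZ), close to the level of macrophages in each library. With that profile subtracted, Bak1 stood at 38.1 and 51.8 CPM in macrophages. The Bak1 ratio in macrophages was 0.983, 1.23 and 1.54 in the low, middle and high UMI tertile, so that it was not above 1 in the shallowest cells. Bak1 lies within Ggnbp1 on the opposite strand, which had 693 UMIs in the 7 classes against 8082 of Bak1.

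Bcl2l11 encodes Bim, the BH3-only protein that removes lymphocytes and granulocytes after growth factor withdrawal (ENSMUSG00000027381, chr2:128126038-128162547 on the plus strand). Neutrophils had 536 CPM (control) and 731 CPM (ENZ), monocytes 477 and 504 CPM and NK cells 406 and 390.0 CPM. Macrophages (279 and 245 CPM), T cells (259 and 201 CPM) and dendritic cells (208 and 173 CPM) came next, and cancer cells were lowest with 136 and 136 CPM. The order of the classes was the same in both libraries, but the level in NK cells fell with depth. It was 734 CPM (control) and 737 CPM (ENZ) in their low UMI tertile and 262 and 240 CPM in their high one. Neutrophils had 509, 581 and 520 CPM (control) and 591, 839 and 724 CPM (ENZ) from the low to the high tertile. Free RNA held 168 CPM (control) and 162 CPM (ENZ), above cancer cells. The ratio of ENZ over control was 1.36 (1.25 to 1.49) in neutrophils, and it lay below 1 in T cells at 0.778 (0.696 to 0.869), in dendritic cells at 0.829 (0.712 to 0.963) and in macrophages at 0.875 (0.813 to 0.942). The macrophage ratio was 1.03 (0.919 to 1.15) with Mmp12 and 0.787 (0.713 to 0.869) without, so that it was not below 1 in the first. By UMI tertile, from low to high, it was 0.706, 0.995 and 0.832 in macrophages and 0.862, 1.07 and 0.664 in dendritic cells, where the middle tertile lay above 1. In neutrophils Bcl2l11 and Mcl1 differed in opposite directions, and UMIs of Bcl2l11 per 100 of Mcl1 were 27.1 (25.6 to 28.7) for control and 44.3 (40.7 to 48.3) for ENZ cells. The neutrophil ratio was 1.16, 1.44 and 1.39 in the low, middle and high UMI tertile. In that class monocyte markers summed to 548 CPM in control and 835 CPM in ENZ cells (8 and 7 of 8 at 10 CPM or more, Plac8 the most abundant), and their part in the result was not tested.

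Within T cells, CD8 T cells carried the most Bcl2l11, 334 and 334 CPM, a ratio of 0.998 (0.827 to 1.21). CD4 T cells without Foxp3 had 196 and 100.4 CPM, a ratio of 0.513 (0.379 to 0.697) that was past 1.5 fold, from 80 control and 101 ENZ UMIs. Foxp3 T cells had 101 and 88.5 CPM, and these levels and the ENZ level of CD4 T cells were below free RNA. In CD4 T cells without Foxp3 the macrophage genes Mmp12 and C1qa stood at 103 and 3.98 CPM and at 122 and 61.6 CPM, lower in the ENZ library as well, and their part in the result was not tested. CD8 T cells thus showed the highest level of both Bcl2 and Bcl2l11 of the 3 subsets in each library.

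Pmaip1 encodes Noxa, a BH3-only protein that binds Mcl1 and A1 (ENSMUSG00000024521, on chromosome 18). Dendritic cells had 133 CPM (control) and 187 CPM (ENZ), 1.63 times the level of macrophages (81.8 and 114 CPM) in each library. T cells had 57.6 and 87.6 CPM, neutrophils 76.4 and 80.5 CPM and monocytes 59.3 and 58.7 CPM. NK cells had 25.4 and 24.7 CPM and cancer cells 7.51 and 7.30 CPM. Free RNA held 28.2 CPM (control) and 20.7 CPM (ENZ), above both levels of cancer cells and the control level of NK cells. The ENZ library was higher in T cells at 1.52 (1.24 to 1.88), in dendritic cells at 1.40 (1.19 to 1.64) and in macrophages at 1.40 (1.24 to 1.57). The T cell ratio was past 1.5 fold but fell short of it without barcodes above the 99th percentile of UMIs, at 1.46, in a gate with 1 more marker, at 1.46, and with median-of-ratios scaling, at 1.43. In T cells, dendritic cells and macrophages Pmaip1 was higher and Bcl2a1b lower in the ENZ library. Mature DC gave 1.63 (1.18 to 2.25), cDC2 1.61 (1.17 to 2.19) and cDC1 1.15 (0.907 to 1.45), and the macrophage ratio was 1.72 (1.42 to 2.08) with Mmp12 and 1.17 (1.004 to 1.36) without. Among T cells, Foxp3 T cells had the most, 193 and 148 CPM, a ratio of 0.766 (0.516 to 1.15) that lay below 1, unlike T cells as a whole, with an interval that held 1. The ratio was 1.69 (1.10 to 2.67) in CD4 T cells without Foxp3 and 1.76 (0.994 to 3.26) in CD8 T cells, where the interval held 1. By UMI tertile, from low to high, the ratio was 1.09, 1.24 and 1.57 in macrophages and 1.99, 1.16 and 1.61 in T cells. In the middle tertile of T cells it fell short of 1.5 fold, with an interval of 0.782 to 1.74.

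Bbc3, which encodes Puma, a p53 target (ENSMUSG00000002083, chr7:16308393-16318205 on the plus strand), and Bid, which caspase 8 cleaves to link death receptors to mitochondria (ENSMUSG00000004446, chr6:120891930-120916853 on the minus strand), were thinly counted. Bbc3 ranged from 7.89 CPM in neutrophils to 16.5 CPM in monocytes in the control and from 6.58 CPM in dendritic cells to 19.0 CPM in monocytes in the ENZ library, and all neighbouring classes overlapped. Free RNA held Bbc3 at 16.2 CPM (control) and 10.8 CPM (ENZ). Every control class except monocytes was below it, as were cancer cells and dendritic cells in the ENZ library. Its ratio was past 1.5 fold in NK cells at 1.61 (0.855 to 2.99) and in neutrophils at 1.68 (0.795 to 3.44), each with an interval that held 1 and each short of the fold in a gate with 1 more marker (1.49 and 1.45), the neutrophil value coming from 22 control and 14 ENZ UMIs. In cancer cells, with 700 control and 762 ENZ UMIs, it was 0.879 (0.792 to 0.976). Bid was highest in NK cells with 15.7 and 13.1 CPM and lowest in cancer cells with 4.94 and 5.39 CPM, but all neighbouring classes overlapped, and 2 of 9 alternatives gave another leading class in the control. It shares 913 bases with Bcl2l13 on the opposite strand, which had 4163 UMIs in the 7 classes against 1120 of Bid. In neutrophils it was 14.3 and 5.68 CPM, a ratio of 0.396 (0.137 to 0.941) from 40 control and 6 ENZ UMIs, and in dendritic cells the ratio was 1.52 (0.674 to 3.30), from 19 control and 12 ENZ UMIs, and 1.42 with median-of-ratios scaling.

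Within cancer cells, levels differed with the division markers. Cells with at least 2 of 6 division markers (Mki67, Top2a, Cenpf, Ube2c, Tpx2 and Cdk1) had Bcl2 at 45.2 and 47.0 CPM, against 70.7 and 67.5 CPM in cells with none. Bcl2l11 was at 117 and 123 CPM in dividing cells and at 197 and 175 CPM in non-dividing cells, and their intervals did not overlap in either library. Bax and Bak1 had the opposite order, with Bax at 172 and 159 CPM in dividing and 129 and 117 CPM in non-dividing cells, and Bak1 at 46.9 and 47.9 CPM and 31.2 and 37.4 CPM. Mcl1 was at 181 and 182 CPM in dividing and 188 and 167 CPM in non-dividing cells. The median depth was 28305 and 28981.5 UMIs in the first and 14663 and 16400 UMIs in the second, and since a deeper cell shows a marker more often, depth and division cannot be told apart in this contrast. The higher Bcl2l1 of the ENZ library was 1.21 (1.12 to 1.29) in dividing and 1.05 (0.859 to 1.29) in non-dividing cells.

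**Figure D4:**
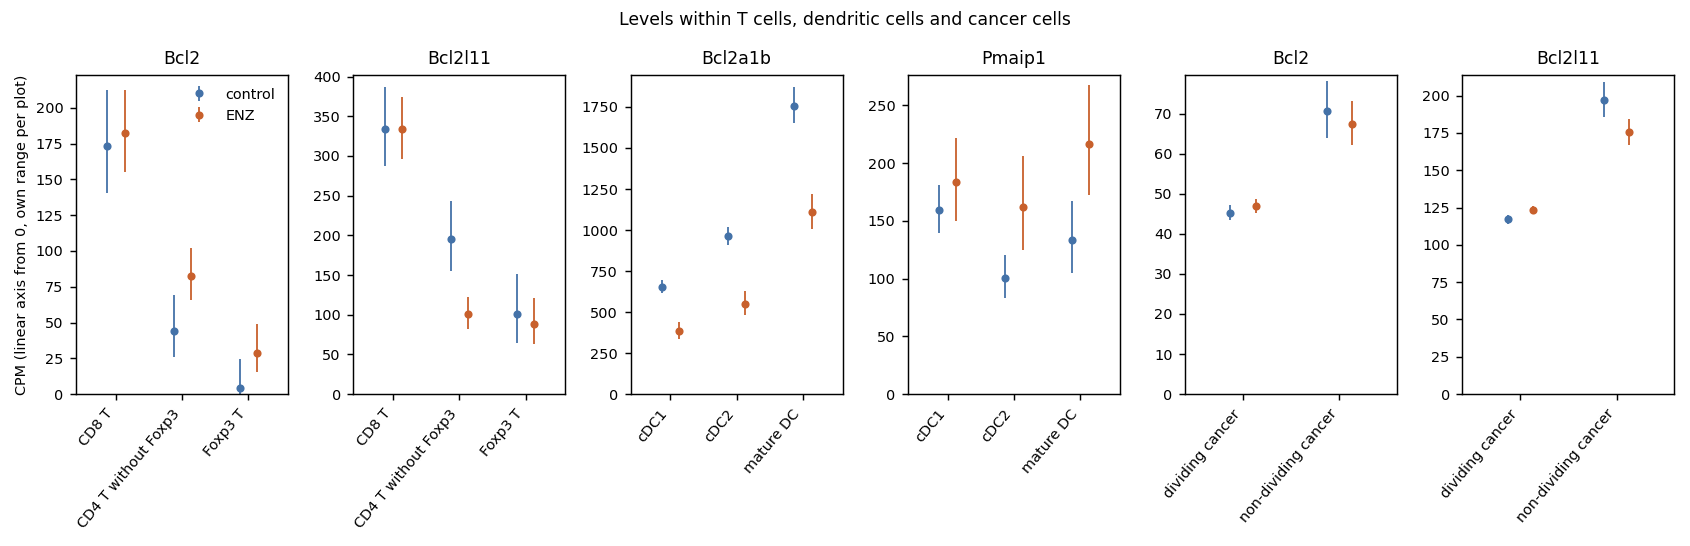
Levels within T cells (Bcl2 and Bcl2l11 in 3 subsets), dendritic cells (Bcl2a1b and Pmaip1 in 3 subclasses) and cancer cells (Bcl2 and Bcl2l11 by division), as CPM on linear axes from 0, control in blue and ENZ in orange, with exact Poisson 95% intervals. CD8 T cells stand highest for both genes, mature DC highest for Bcl2a1b, and non-dividing cancer cells above dividing ones.

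Classes and libraries were also compared by the UMIs of one member per 100 UMIs of another, a ratio whose size does not give the relative number of the molecules of the 2 genes. UMIs of Bcl2 per 100 UMIs of Bcl2l1 were 573 (478 to 692) for control and 659 (516 to 854) for ENZ cells in NK cells and 7.09 (5.62 to 8.86) for control and 7.19 (4.97 to 10.1) for ENZ cells in neutrophils. Cancer cells gave 187 (176 to 198) for control and 166 (158 to 175) for ENZ cells. T cells gave 203 (172 to 239.9) for control and 129 (113 to 148) for ENZ cells, and macrophages gave 34.3 (29.8 to 39.4) for control and 56.5 (47.7 to 66.8) for ENZ cells. The ratio was higher in NK cells, T cells and cancer cells than in any of the 4 myeloid classes, with no overlap of their intervals in either library. For Bcl2a1b per 100 Mcl1, dendritic cells gave 243 (228 to 259) for control and 175 (156 to 195) for ENZ cells, macrophages 144 (139 to 150.1) for control and 80.1 (75.0 to 85.4) for ENZ cells and neutrophils 31.3 (29.6 to 33.1) for control and 32.7 (29.7 to 36.0) for ENZ cells. For Bcl2l11 per 100 Mcl1, NK cells gave 164 (148 to 182) for control and 173 (149.7 to 201) for ENZ cells and cancer cells 74.6 (72.5 to 76.6) for control and 76.4 (74.6 to 78.3) for ENZ cells.

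**Figure D5:**
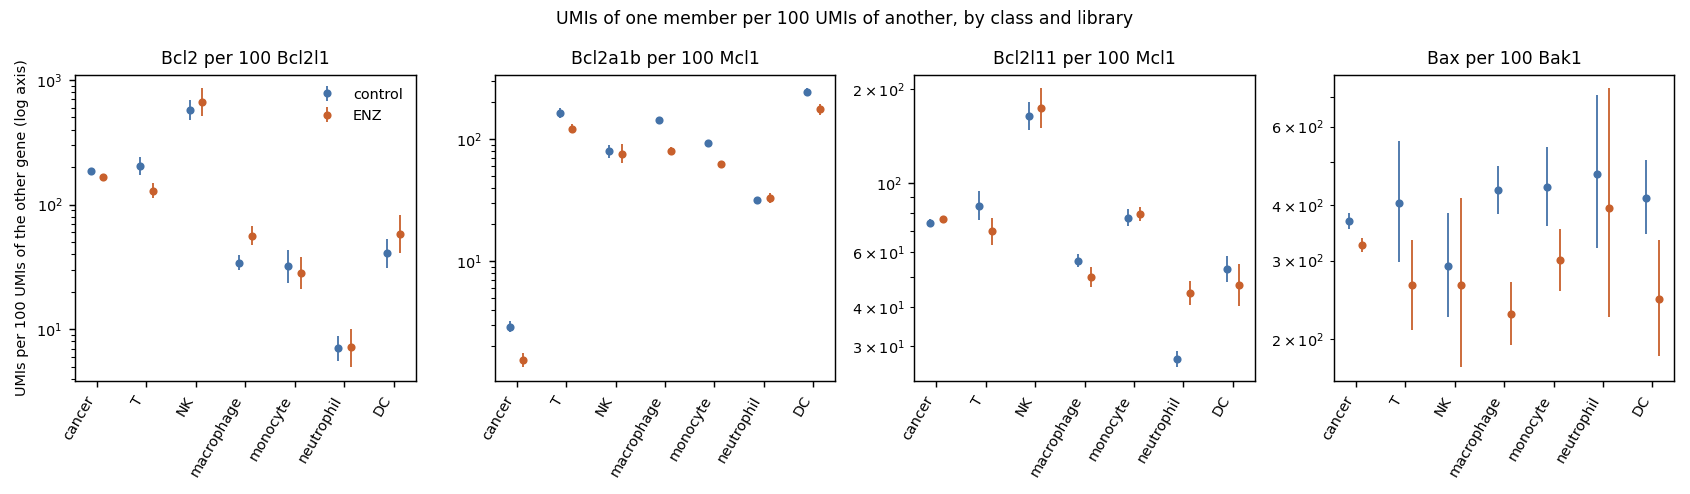
UMIs of one member per 100 UMIs of another in 7 classes on log axes, control in blue and ENZ in orange, with exact binomial 95% intervals. Bcl2 per 100 Bcl2l1 runs from 7.09 in control neutrophils to 659 in ENZ NK cells, and Bax per 100 Bak1 lies lower in the ENZ library in all 7 classes, with intervals that do not overlap in cancer cells, macrophages, monocytes and dendritic cells.

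Other genes of the apoptosis pathway were counted from lists, and their counts stand beside the shares of all genes past the fold given above. These were 10.5% in cancer cells, 24.4% in macrophages, 24.6% in neutrophils and 26.5% in dendritic cells. They were 20.5% in NK cells, 21.9% in monocytes and 21.1% in T cells. Of 15 further BCL2 family genes, 13 met the minimum in cancer cells, 0 were past 1.5 fold upward and 3 downward: Bcl2a1a, Bcl2a1d and Bik, which encodes a BH3-only protein of the endoplasmic reticulum. The levels of Bcl2a1a (1.75 and 0.757 CPM) and Bcl2a1d (3.21 and 1.04 CPM) were far below free RNA, which held 60.6 CPM (control) and 22.1 CPM (ENZ) of the first and 108 CPM (control) and 49.4 CPM (ENZ) of the second, so that these calls cannot be read as values of cancer cells. Bik gave 0.623 (0.394 to 0.976) from 48 control and 37 ENZ UMIs. In neutrophils 0 of 6 were past the fold. In NK cells 0 were higher and 2 lower, Bcl2a1a being furthest with 19 UMIs against 2, also below free RNA. In macrophages 4 of 12 were higher and 3 lower, with Bok, an effector related to Bax, furthest at 3.39 (1.39 to 8.77) from 9 control and 15 ENZ UMIs. In monocytes 2 of 11 were higher and 3 lower, Bcl2a1a and Bcl2a1d among the lower ones, and in T cells 0 of 8 were higher and 2 lower. In dendritic cells 1 of 9 was higher and 2 lower, and Bcl2l12 gave 0.151 (0.0175 to 0.590) from 32 control and 2 ENZ UMIs. Of 11 genes of the apoptosome and caspases, 0 were past the fold in cancer cells, while 3 were higher and 0 lower in dendritic cells and 2 higher and 0 lower in macrophages, close to or below the share of all genes. Among them the initiator Casp9 gave 3.13 (1.27 to 7.98) in dendritic cells and the executioner Casp6 2.81 (1.39 to 6.28) in T cells. Aifm1, a mitochondrial flavoprotein, gave 2.45 (1.06 to 5.63) in neutrophils.

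Of 7 inhibitors of apoptosis, which block caspases or sense bacterial proteins, 1 was lower and 0 were higher in cancer cells. This was Naip5, at 0.514 (0.243 to 1.05) from 22 control and 14 ENZ UMIs. In dendritic cells 3 were higher and 2 lower, against 26.5% of all genes. In neutrophils 3 were higher and 1 lower, against 24.6% of all genes, the lower one being Naip5 with 19 UMIs against 1, a ratio of 0.139 (0.00335 to 0.875). Of 11 death receptor genes, 10 met the minimum in cancer cells with 0 past the fold. In NK cells 2 were higher, among them Mlkl, the executor of necroptosis, at 2.19 (1.17 to 4.13), and in macrophages 1 was higher and 2 lower, the higher one being the receptor Tnfrsf10b at 2.34 (1.04 to 5.35). In monocytes the BH3-only gene Bmf gave 2.97 (0.969 to 12.1) from 4 control and 17 ENZ UMIs. Of 13 known regulators of the family, 0 were past the fold in cancer cells and NK cells, 2 were higher and 1 lower in macrophages, and 1 was lower in neutrophils.

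Each member was also compared with all genes that reached 50 CPM in at least 1 class, 5887 in number, by the Pearson correlation of log2(CPM + 10) over the 14 values of 7 classes and 2 libraries, which share their cells' depth and library. Bcl2a1b was most like Bcl2a1d (r = 0.98), Hcls1 (0.97) and Cytip (0.96), the first being its near-identical copy and Hcls1 an adaptor of blood cells. Mcl1 was most like Resf1 (r = 0.99), Cd300lf (0.99) and Trem1 (0.98), of which Cd300lf and Trem1 encode myeloid receptors. Bcl2 was most like Plekha2 (r = 0.96), Sult2b1 (0.96) and Nlrc3 (0.96), and Bcl2l1 like Gm15345 (r = 0.96), Btbd9 (0.96) and Lmnb1 (0.95). Among the genes most like Bcl2l11 were Tbc1d2b (r = 0.94) and Sipa1l2 (r = 0.93). Pmaip1 was most like Grb2 (r = 0.95), Rel (0.94) and Rab43 (0.93), with Rel a subunit of NF-κB. Bax was most like Ost4 (r = 0.95), Uqcrb (0.94) and Tm2d1 (0.94) and Bak1 like Nmt1 (r = 0.95), Uqcr11 (0.95) and Ssr1 (0.94). The thinly counted Bbc3 and Bid had weaker partners, Degs1 (r = 0.91), 8030462N17Rik (0.83) and Mindy2 (0.80) and Cdyl (r = 0.79), Rhoq (0.76) and Foxp1 (0.75).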

How the data were processed

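The deposited matrices hold unnormalized UMI counts for each gene in each barcode. The file header names Cell Ranger 7.2.0, whereas the submitters' processing notes name Cell Ranger 2.1.1 and mm10. Whether intronic reads were counted is not given in the sources used here, and the labels' chemistry lists fewer barcodes than the files. The members, gene lists and comparisons were chosen with earlier results of these data known.

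Barcodes with at least 1000 UMIs and at most 20% mitochondrial UMIs were kept, without a test against empty droplets. This left 12253 control and 10271 ENZ barcodes, with medians of 6376 and 8127 UMIs. A class score was the mean of its markers' ln(1 + UMIs scaled to 10000), each divided by its SD, capped at 6 and centred. Immune cells had UMIs of at least 3 markers of their class and fewer than 3 cancer markers, with a score at least 0.5 above every other class. Cancer cells had at least 3 cancer markers, no Ptprc UMI, immune scores under 0.5 and other scores under 1. Gate limits were settled over 3 versions, with several values tried for the immune score, after marker levels and members' levels under an earlier version had been seen, and 7 of 12 cancer markers were used, those with a UMI in at least 2% of barcodes of each library. Foxp3 alone marked regulatory T cells, which is narrower than the listed markers. Doublets were left out only through the gates, since no caller was run. For shares, cells were thinned to 1000 UMIs.

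CPM carry exact Poisson intervals, ratios exact conditional binomial intervals and shares Clopper-Pearson intervals, all at 95%. In simulated Poisson counts with 200 changed genes, between 95.4% and 96.2% of ratio intervals held the true ratio. The simulation held no variation between cells or libraries, so it checks only the computation of the intervals. The rule for named genes took all members, 3 most similar genes each, and from the related lists those past 1.5 fold in cancer cells and the 2 furthest in each other class, and some of these are not reported here. Alternatives covered UMI and mitochondrial limits, gates, scaling, free RNA and minimum counts. Sequences were taken from RefSeq and positions from a GRCm38 annotation. The tools were pandas 2.3.3, SciPy 1.17.1 and NumPy 2.4.6 under Python 3.11.15.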

Additional observations from a re-analysis of the deposited data

Results flagged for a closer look

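Bid, which links death receptors to mitochondria, differed in opposite directions in a pair of classes. In neutrophils the ratio of ENZ over control was 0.396, from 40 control and 6 ENZ UMIs. In the neutrophil tertile with the fewest UMIs it was 0.753 (8 control and 2 ENZ UMIs), against 0.199 and 0.405 in the others. In dendritic cells it was 1.52, from 19 and 12 UMIs. The difference between these classes was not tested, since each condition has 1 library, and the interval in dendritic cells (0.674 to 3.30) held 1.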

How the results depend on the processing

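No paired analysis was possible because control and ENZ are single libraries, and none could be left out. The number of members past 1.5 fold was most open to the processing. In cancer cells it was 0 with free RNA subtracted. In T cells it was 2 with the mean of single-cell CPM and with free RNA subtracted, and 0 without barcodes above the 99th percentile of UMIs. In NK cells it was 0 with 1 more marker, 2 with median-of-ratios scaling and 0 with a minimum of 100 UMIs. In monocytes it was 1 with median-of-ratios scaling. In neutrophils it was 1 with at least 2000 UMIs, 1 with 1 more marker and 0 with a minimum of 100 UMIs. Bak1 also came past the fold in neutrophils with the mean of single-cell CPM, at 1.53. In dendritic cells it was 1 with 1 more marker, 1 without barcodes above the 99th percentile and 1 with a minimum of 100 UMIs. Other alternatives added calls in dendritic cells. With median-of-ratios scaling Bcl2a1b, Bax and Bbc3 came past the fold, all lower, while Bcl2 and Bid fell short. With the mean of single-cell CPM Bcl2a1b and Pmaip1 came past it, while Bcl2 fell short. Of the log2 ratios of single members, 778 stayed within the counting interval. Another 106 left it, some with a change of sign. One example is Bcl2 in cancer cells, at 0.09 in all of them and -0.07 in non-dividing ones. Among the ratios past 1.5 fold, 1 changed sign, that of Bcl2 in dendritic cells. It was -1.64 in the tertile with the fewest UMIs, an alternative chosen after seeing the data and resting on 10 and 2 UMIs. The cause was not tested. Over the other limits, gates and scalings, and macrophages without Mmp12, the Bcl2a1b ratio ranged from 0.494 to 0.594 in macrophages and from 0.833 to 1.01 in neutrophils, and over UMI tertiles in neutrophils from 0.622 to 1.12. Bbc3 and Bid were thinly counted, which limits what can be read of them.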

Other observations

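Barcodes within the limits that fell in no gate were in no comparison. They held Bcl2a1b at 153 CPM (control) and 80.7 CPM (ENZ), a ratio of 0.528 (0.509 to 0.549). Mcl1 stood there at 259.9 and 244 CPM, a ratio of 0.940 (0.917 to 0.962). Pmaip1 gave 22.7 and 20.2 CPM, a ratio of 0.886 (0.815 to 0.963). With the 3 dendritic subclasses at equal weight, an alternative chosen after seeing the data, the ratio in dendritic cells was 0.605 for Bcl2a1b, 1.64 for Bcl2, 0.743 for Bax and 1.43 for Pmaip1.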
